A study of Mus musculus with 6 samples.

Results

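The liver X receptors (LXRs) and the genes through which they move sterols were followed in whole liver RNA of C57BL/6 mice given lipopolysaccharide (LPS), the endotoxin of Gram-negative bacteria. The set held 9 genes of the 22488 in each count table, found by their symbols. They are the receptors Nr1h3 (LXR-alpha) and Nr1h2 (LXR-beta), the exporters Abca1, Abcg1, Abcg5 and Abcg8, the ubiquitin ligase Mylip, the phospholipid acyltransferase Lpcat3 and the plasma transfer protein Pltp. All mice were wild-type males of 6 to 8 weeks, kept at 25 °C on standard chow and fasted for 16 h. The LPS group (n = 3 livers) received 6 mg/kg LPS into the abdominal cavity, and the control group (n = 3 livers) was injected there with 200 µl of the salt buffer HBSS. One label field of the control samples instead reads as no treatment, and the sources used here do not say how long after injection the livers were taken.

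LXRs are nuclear receptors that sense oxysterols, the oxidised forms of cholesterol. Paired with a retinoid X receptor (RXR) they bind direct repeats in DNA and switch on genes that carry cholesterol out of cells, and in liver they also drive fatty acid synthesis and the release of sterols into bile. ABCA1 loads cholesterol and phospholipid onto apolipoprotein A-I to start HDL, ABCG1 passes cholesterol to existing HDL, and ABCG5 and ABCG8 work only as a pair that exports sterols across the canalicular membrane. MYLIP, also called IDOL, marks lipoprotein receptors for destruction, LPCAT3 puts polyunsaturated chains into membrane phospholipids, and PLTP moves phospholipid between lipoproteins.

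The libraries held 11488525 to 15437785 counts in the LPS group and 12577993 to 20282004 in the control group, and all 9 members passed the filter on low counts. Levels are given as CPM, counts scaled to library size, with mean ± SD over the 3 livers of a group. Each log2 fold change is that of LPS over control livers, with a standard error (SE) and an adjusted p from edgeR's quasi-likelihood test over 12078 genes. A gene rose or fell where that p was under 0.05. The response to LPS was broad: 62.3% of all tested genes passed, 31.3% higher and 31.0% lower in LPS livers, with a median log2 fold change of 0.01. Against that background 1 member rose, 4 fell and 4 did not pass, a share of called members close to that of all genes. The LPS and control values of 5 members did not overlap, and neither did those of 67.4% of all tested genes.

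The upstream windows of Abca1, the member that rose, and of Abcg5, which overlaps that of its partner Abcg8, are shown because these exporters went in opposite directions. Both come from RefSeq on GRCm38.p6 and run from 250 bases before to 50 bases after the start site. In the Abca1 window, on the minus strand at chr4:53159846-53160145, capitals mark the stretch nearest to the direct repeat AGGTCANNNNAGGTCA that LXR and RXR bind. In the Abcg5 window, on the minus strand at chr17:84682962-84683261, capitals mark AGATAA on either strand, the core word read by GATA factors, a word chosen after the window was read.
Abca1: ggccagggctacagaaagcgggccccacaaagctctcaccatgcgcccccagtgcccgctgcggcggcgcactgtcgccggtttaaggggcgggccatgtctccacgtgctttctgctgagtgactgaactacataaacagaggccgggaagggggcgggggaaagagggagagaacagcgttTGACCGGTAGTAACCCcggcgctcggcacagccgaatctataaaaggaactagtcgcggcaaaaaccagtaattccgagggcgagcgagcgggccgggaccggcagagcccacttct
Abcg5: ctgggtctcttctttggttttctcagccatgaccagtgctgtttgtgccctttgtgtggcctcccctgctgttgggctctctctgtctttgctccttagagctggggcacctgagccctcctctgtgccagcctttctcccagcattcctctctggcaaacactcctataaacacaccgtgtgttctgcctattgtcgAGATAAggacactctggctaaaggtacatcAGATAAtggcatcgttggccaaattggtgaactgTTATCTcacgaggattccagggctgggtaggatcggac

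Read on the other strand, the capitals of the Abca1 window are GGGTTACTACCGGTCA, which differs from the repeat at 3 of its 12 fixed letters and ends 52 bases before the start site. Of 32851 RefSeq windows of this length, 21.9% hold a stretch that close on either strand, and 3.02% hold one with at most 2 mismatches. The 10 windows of 8 members were searched, and the best match in the 9 windows other than that of Abca1 had 4 or 5 mismatches. The Abcg5 window holds AGATAA 3 times. Of all windows 0.107% hold it at least 3 times and 11.2% at least once. The word was picked from the Abcg5 window, so these shares cannot show that its number there is unusual. The Abcg5 start site and the nearer Abcg8 start site lie head to head, with 109 bases between them. The nearer Abcg8 window therefore shares 209 bases with the one printed and the same 3 words. The other Abcg8 window (chr17:84676052-84676351) lies within the Abcg5 gene and holds the word 0 times. These matches describe letters and do not show binding.

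Of the receptors, Nr1h3 fell. It had 34.8, 34.5 and 37.1 CPM in LPS livers, against 94.5, 78.6 and 85.7 CPM in control livers. All 3 LPS values lay below all 3 control values, and the coefficient of variation among LPS livers was 4.13%. Nr1h3 (chromosome 2, 91184061 to 91202834, minus strand) fell by 1.28 on the log2 scale (SE 0.12, adjusted p = 8.20e-07). Nr1h2, the receptor found in most cell types, had 47.7, 51.5 and 63.1 CPM in LPS livers, against 52.6, 36.6 and 44.8 CPM in control livers, and the groups overlapped. Its log2 fold change was 0.28 (SE 0.15, adjusted p = 0.128). That value reached 0.41 with adjusted p = 0.0426 without control replicate 1, the highest control library, and was 0.13 without control replicate 2.

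The order of the receptors by count was compared within the libraries, where scaling plays no part. For each Nr1h2 count there were 0.730, 0.668 and 0.589 Nr1h3 counts in LPS livers, against 1.80, 2.15 and 1.91 in control livers. Nr1h3 was the less counted receptor in every LPS library and the more counted one in every control library. The mean log2 ratio was -0.60 ± 0.16 in LPS livers and 0.96 ± 0.13 in control livers (SD, n = 3 each), a difference of -1.56. A 2-sided exact permutation test gave p = 0.1, the smallest this design allows (adjusted p = 0.133 over the 4 ratios tested, whose pairs were chosen with earlier results known).

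**Figure D1:**
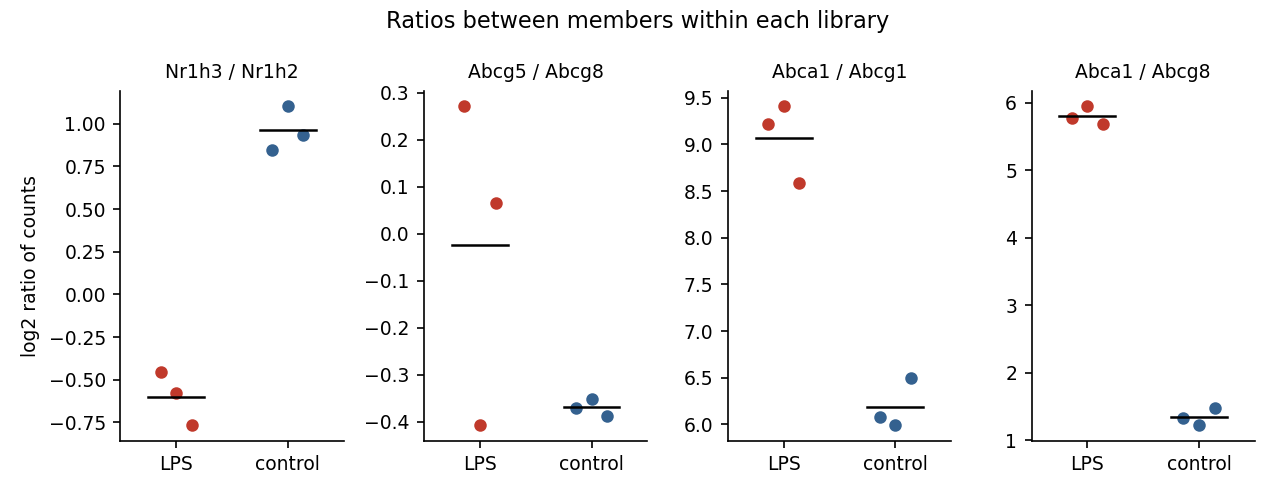
Log2 ratio of the raw counts of 2 members within each library, LPS left and control right, with 1 point per library and a line at the group mean. Nr1h3 over Nr1h2 lies below 0 in all LPS livers and above 0 in all control livers, both ratios with Abca1 on top lie higher in all LPS livers, and Abcg5 over Abcg8 overlaps.

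Abca1 was the only member that rose with all 6 libraries in the fit. It had 810, 954 and 793 CPM in LPS livers, against 148, 168 and 162 CPM in control livers. The lowest LPS value was several times the highest control value, and the spread within groups was small beside the gap (852 ± 88.7 CPM in LPS livers and 159 ± 10.5 CPM in control livers). The log2 fold change of Abca1 (chromosome 4, 53030787 to 53159895, minus strand) was 2.42 (SE 0.14, adjusted p = 3.92e-09), a 5.35-fold higher level in LPS livers. Of all tested genes 4.35% had a larger log2 fold change.

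The other HDL exporter was near the limit of detection. Abcg1 (chromosome 17, 31057675 to 31117988, plus strand) had 16, 20 and 29 counts in LPS livers, against 28, 54 and 28 counts in control livers. That is 1.61 ± 0.394 CPM in LPS livers and 2.20 ± 0.416 CPM in control livers, with overlapping groups. Its log2 fold change was -0.45 (SE 0.40, adjusted p = 0.346), and at these counts a change of that size was not detectable. Abca1 had 593, 678 and 383 counts for each Abcg1 count in LPS livers, against 67.6, 63.9 and 90.4 in control livers. The groups did not overlap, and the log2 difference of 2.88 had an exact permutation p = 0.1 (2-sided, adjusted p = 0.133). It is given as a description, since this ratio sets the only member that rose over one that did not pass. Its direction follows from that choice.

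The canalicular pair fell. Abcg8 had 14.8, 15.5 and 15.3 CPM in LPS livers, against 58.6, 71.7 and 58.6 CPM in control livers. The LPS livers were nearly identical, with a coefficient of variation of 2.18%, and all lay below the control livers. Abcg8 (chromosome 17, 84676302 to 84700333, plus strand) fell by 2.05 on the log2 scale (SE 0.13, adjusted p = 1.69e-08), and 5.99% of all tested genes had a lower log2 fold change. Abcg5 had 17.9, 11.7 and 16.0 CPM in LPS livers, against 45.4, 56.1 and 44.8 CPM in control livers, again without overlap. Abcg5 (chromosome 17, 84658234 to 84683011, minus strand) fell by 1.69 (SE 0.17, adjusted p = 1.08e-06). Their exons share 40 bases on opposite strands, and the sources used here do not say whether counting used strand.

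The ratio of the pair varied more among the LPS livers. For each Abcg8 count there were 1.21, 0.755 and 1.05 Abcg5 counts in LPS livers, against 0.774, 0.783 and 0.765 in control livers. The control livers agreed to within 0.0174 (SD of the log2 ratio), and the LPS livers had an SD of 0.347 and lay on both sides of them. The difference of the mean log2 ratios was 0.35 (2-sided exact permutation p = 0.4, adjusted p = 0.4). The ratio of Abca1 to Abcg8 counts was 54.6, 61.7 and 51.7 in LPS livers, against 2.52, 2.34 and 2.77 in control livers. The log2 difference was 4.46, given as a description, since this ratio sets the member that rose over the one that fell most and its direction follows from that choice.

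**Figure D2:**
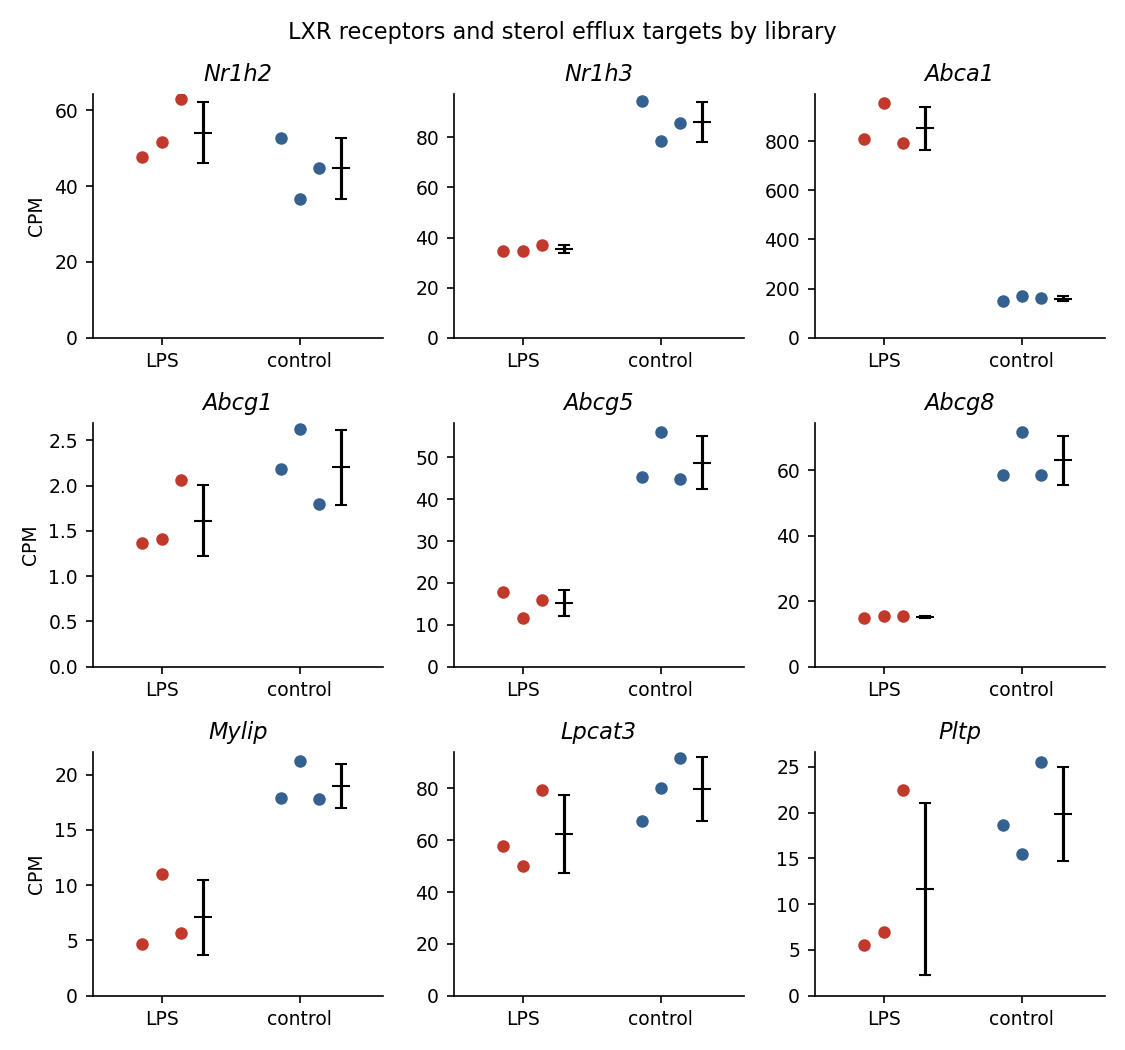
CPM of each member in each library, with LPS livers in red on the left and control livers in blue on the right, replicates 1 to 3 from left to right, and a bar for the mean ± SD (n = 3). Abca1 lies higher and Nr1h3, Abcg5, Abcg8 and Mylip lie lower in all 3 LPS livers, and 1 LPS liver stands at the control level for Pltp.

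Mylip fell as well. It had 4.69, 11.0 and 5.63 CPM in LPS livers, against 17.9, 21.2 and 17.8 CPM in control livers. The groups did not overlap, although LPS replicate 2 stood about midway between the other LPS livers and the controls. Mylip (chromosome 13, 45389742 to 45412022, plus strand) fell by 1.41 on the log2 scale (SE 0.26, adjusted p = 3.51e-04), and the change ranged from -1.87 to -1.21 over the settings tried.

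The lipid-modifying members did not pass. Lpcat3 had 57.8, 50.1 and 79.3 CPM in LPS livers, against 67.3, 80.1 and 91.8 CPM in control livers, with LPS replicate 3 inside the control range. The change of Lpcat3 (chromosome 6, 124663027 to 124704418, plus strand) was -0.35 on the log2 scale (SE 0.17, adjusted p = 0.0838). Without LPS replicate 3 it fell by 0.55 (adjusted p = 0.00769), and without control replicate 1 by 0.47 (adjusted p = 0.0426). It also fell when library totals were the only scaling (-0.43, adjusted p = 0.0261) and when low counts were not filtered (-0.39, adjusted p = 0.0212).

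Pltp differed most between livers of the same group. It had 5.54, 6.96 and 22.5 CPM in LPS livers, against 18.6, 15.5 and 25.5 CPM in control livers. LPS replicates 1 and 2 lay below every control liver, and LPS replicate 3 lay among them, which gave a coefficient of variation of 80.7% in LPS livers and 25.7% in control livers. The change of Pltp (chromosome 2, 164839518 to 164857711, minus strand) was -0.76 on the log2 scale (SE 0.39, adjusted p = 0.106). Without LPS replicate 3 it fell by 1.65 (adjusted p = 9.59e-05). It also fell with library totals as the only scaling (-0.87, adjusted p = 0.0480) and without a filter on low counts (-0.80, adjusted p = 0.00410). Of its 2354 exon bases 495 overlap Ctsa, a lysosomal protease gene on the other strand, which had 78.7, 80.0 and 90.2 CPM in LPS livers, against 115, 105 and 123 CPM in control livers. Ctsa fell by 0.46 (SE 0.12, adjusted p = 0.00447), with LPS replicate 3 below every control liver, and the part of shared reads in the Pltp counts was not tested. Kupffer cell markers summed to 82.6, 98.0 and 133 CPM in LPS replicates 1, 2 and 3, against 333, 374 and 325 CPM in control livers, and their part in the Pltp values was not tested either.

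**Figure D3:**
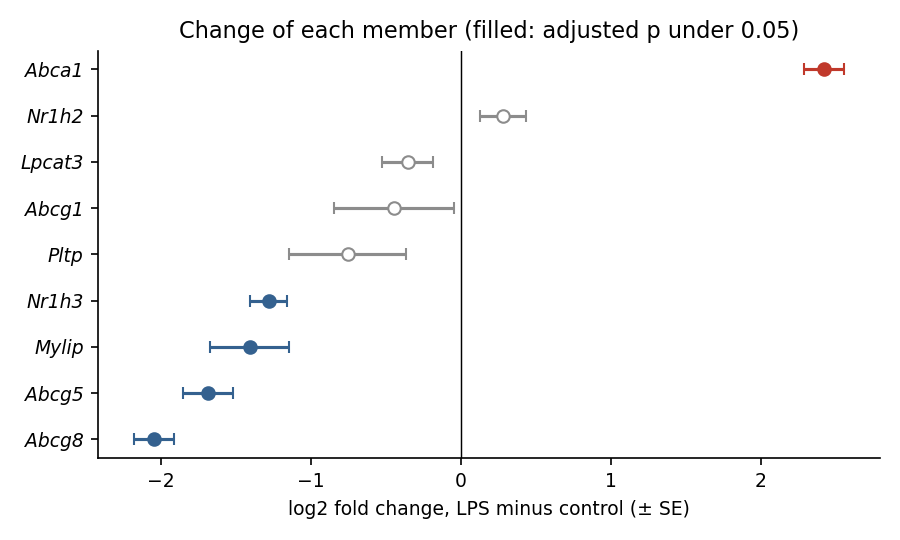
Log2 fold change of each member, LPS minus control, with its SE from edgeR and filled points where the adjusted p was under 0.05. Abca1 (2.42) stands alone above 0 among the called members, and Nr1h3, Mylip, Abcg5 and Abcg8 lie between -1.28 and -2.05.

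Per kilobase of exon the order of the members changed between the groups. In LPS livers Abca1 led at 83.0 ± 8.64 CPM per kb, above Lpcat3 at 27.4 ± 6.63 and Nr1h2 at 27.0 ± 3.999 CPM per kb, whose ranges overlapped. Nr1h3 followed at 16.5 ± 0.681 CPM per kb, then Abcg5 at 6.28 ± 1.32, Pltp at 4.96 ± 4.003 and Abcg8 at 4.06 ± 0.0882 CPM per kb, and the range of Pltp covered both of its neighbours. In control livers Nr1h3 led at 40.2 ± 3.70 CPM per kb, with Lpcat3 at 35.0 ± 5.38 CPM per kb overlapping it. Next came Nr1h2 at 22.3 ± 3.97, Abcg5 at 20.2 ± 2.63, Abcg8 at 16.8 ± 2.01 and Abca1 at 15.5 ± 1.02 CPM per kb, and each of these overlapped its neighbour. Abca1 was thus sixth in control livers and first in LPS livers. Mylip and Abcg1 were the lowest in both groups, with Abcg1 at 0.236 ± 0.0577 CPM per kb in LPS livers and 0.322 ± 0.0609 CPM per kb in control livers.

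**Figure D4:**
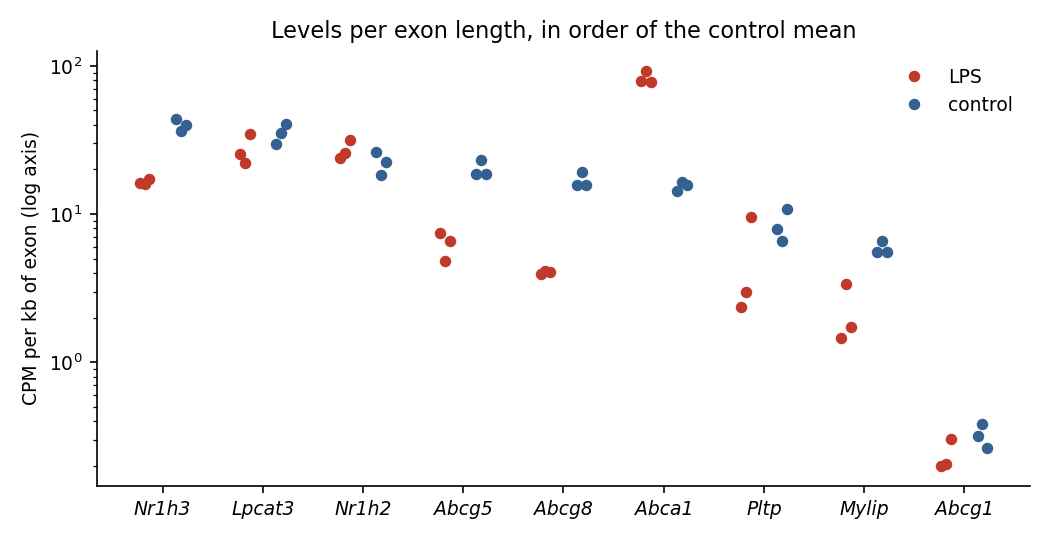
CPM per kb of exon on a log axis for each member, ordered by the control mean, with 1 point per library and LPS left of control. Abca1 moves to the top in LPS livers (77.3 to 93.0 CPM per kb, against 14.4 to 16.3 in control livers), and Abcg1 is lowest in both groups.

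Markers of liver cell types also moved in these libraries, where 31.3% of all tested genes rose and 31.0% fell. In bulk RNA fewer cells of a type and less RNA per cell cannot be told apart. Of 10 tested Kupffer cell markers of 11 listed, 9 fell and 1 rose, and their summed level was 82.6 to 133 CPM in LPS livers, against 325 to 374 CPM in control livers. Cd5l, itself an LXR target of resident macrophages, had 8.40 ± 0.976 CPM in LPS livers and 80.4 ± 5.25 CPM in control livers. The 10 hepatocyte markers summed to 60494 to 85698 CPM in LPS livers, against 103062 to 116113 CPM in control livers, with 9 lower and 1 higher. Neutrophil markers rose in 10 of 10 cases and summed to 223 to 272 CPM in LPS livers, against 5.61 to 8.51 CPM in control livers. Monocyte markers rose in 5 of 6 tested cases, with sums of 66.0 to 78.5 CPM in LPS livers, against 6.39 to 12.2 CPM in control livers. Sinusoidal endothelial markers fell in 5 and rose in 1 of 8 tested cases, stellate cell markers fell in 3 and rose in 1 of 8, cholangiocyte markers rose in 3 and fell in 1 of 4, and of 4 tested lymphocyte markers 1 fell. No marker of the Kupffer cell, hepatocyte, neutrophil and monocyte lists was at 0 in a whole group. The part of these cells in the changes of Abca1, Nr1h3, Abcg5, Abcg8 and Mylip was not tested.

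Of the genes that make or clear the oxysterol ligands, 1 rose and 4 fell of 6 tested, beside 31.3% and 31.0% of all tested genes. Their median log2 fold change was -1.13 where all genes had 0.01. Ch25h, which makes 25-hydroxycholesterol in activated macrophages, had 12.4 ± 2.74 CPM in LPS livers and 0.244 ± 0.101 CPM in control livers, the control value resting on 4, 6 and 2 counts (5.61, SE 0.37, adjusted p = 2.03e-08). Cyp27a1, the mitochondrial sterol 27-hydroxylase, fell by 0.63 (SE 0.13). The oxysterol hydroxylase Cyp39a1 fell by 2.15 (SE 0.16). Cyp7b1, which clears 25- and 27-hydroxycholesterol, had 311 ± 62.4 CPM in LPS livers and 259 ± 72.5 CPM in control livers and did not pass (adjusted p = 0.238), except without control replicate 1 (0.51, adjusted p = 0.0231).

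The list of partners and coregulators held 5 higher and 5 lower genes of 16 tested, shares close to the 31.3% and 31.0% of all tested genes. Its median was 0.16. The RXR genes all fell, and the coregulators went both ways. Rxra, the main RXR of hepatocytes, had 278 ± 38.6 CPM in LPS livers and 349 ± 19.0 CPM in control livers (-0.33, SE 0.13, adjusted p = 0.0456). Its call ended without control replicate 1 or 3 and without LPS replicate 1 or 2, with values of -0.38 to -0.24. Rxrb (-0.51, SE 0.14, adjusted p = 0.00661) and Rxrg (-1.02, SE 0.29, adjusted p = 0.00709) fell too and passed under all the settings tried. Rxrg was low, at 2.68 ± 0.504 CPM in LPS livers and 5.43 ± 0.574 CPM in control livers. The corepressor Ncor1 fell by 0.71 (SE 0.13), whereas the corepressor subunit Tbl1xr1 (1.66, SE 0.12) and the coactivator Ncoa2 (1.40, SE 0.12) rose. Tbl1x, of the same list as Tbl1xr1, fell by 0.72 (SE 0.13). Rxrb, Rxrg and Tbl1x were named after their values were seen.

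Lipogenic and triglyceride targets went both ways. Of 8 tested, 2 rose and 3 fell, with a median of 0.05, near the shares of 31.3% and 31.0% of all tested genes. Fasn, the fatty acid synthase, had 269 ± 29.5 CPM in LPS livers and 66.3 ± 19.0 CPM in control livers (2.02, SE 0.19), and the lipogenic regulator Srebf1, an LXR target in liver, had 45.3 ± 6.68 CPM in LPS livers and 28.7 ± 1.16 CPM in control livers (0.66, SE 0.14). The lipase Lpl fell by 1.35 (SE 0.24). Acaca of the same list, picked for mention once its result was known, went against Fasn. It had 20.7 ± 0.657 CPM in LPS livers and 30.3 ± 4.35 CPM in control livers, without overlap (-0.55, SE 0.14, adjusted p = 0.00385). Scd1, the stearoyl-CoA desaturase, had 3388 ± 1009 CPM in LPS livers and 2574 ± 951 CPM in control livers (adjusted p = 0.186), and it passed without control replicate 3 (0.69, adjusted p = 0.0270).

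Among other LXR targets of sterol traffic, 6 fell and 1 rose of 9 tested, beside 31.0% and 31.3% of all tested genes. The median was -0.88. Apoe, the apolipoprotein of remnants and macrophage efflux, had 11812 ± 1294 CPM in LPS livers and 20045 ± 1748 CPM in control livers (-0.76, SE 0.15). Apoc4 fell by 1.53 (SE 0.15), the macrophage receptor for dying cells Mertk by 1.89 (SE 0.21) and the phosphodiesterase Smpdl3a by 1.09 (SE 0.12). The riser was Npc2, which hands cholesterol out of lysosomes (0.54, SE 0.12), whereas Npc1 of the same list fell by 0.88 (SE 0.14). Both were named after their values were seen.

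Among the receptors that MYLIP marks for destruction and the genes that handle them, 5 rose and 2 fell of 8 tested. The shares of all tested genes were 31.3% and 31.0%, and the median of the list was 0.46. Vldlr, a receptor for triglyceride-rich lipoproteins, had 1.34 ± 0.418 CPM in LPS livers and 1.78 ± 0.508 CPM in control livers and did not pass (adjusted p = 0.451), and Lrp8, a relative of it, was under the filter. Snx17, which returns receptors of this family to the surface, rose (1.13, SE 0.13), and Ube2d3, of the family of E2 enzymes that MYLIP works with, rose too (0.47, SE 0.12). Only 3 of these genes rose when control replicate 1, LPS replicate 1 or LPS replicate 3 was left out.

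Genes of HDL assembly fell or did not pass, with 7 lower and 3 not passing of 10 tested and a median of -0.73. Over all tested genes 31.3% rose and 31.0% fell. Apoa1, the acceptor that ABCA1 loads, had 13940 ± 786 CPM in LPS livers and 14315 ± 994 CPM in control livers (-0.04, SE 0.14, adjusted p = 0.831). Pdzk1, which holds the HDL receptor at the membrane, fell by 3.05 (SE 0.28), Apoa4 by 1.90 (SE 0.20) and the hepatic lipase Lipc by 1.01 (SE 0.13). Of the relatives of PLTP and LPCAT3, 1 rose and 1 fell of 6 tested, with a median of -0.04. Lbp, the LPS-binding protein of the same family as PLTP, had 330 ± 82.9 CPM in LPS livers and 148 ± 13.3 CPM in control livers (1.16, SE 0.16), and Lclat1, an acyltransferase of cardiolipin remodelling, fell by 1.39 (SE 0.15).

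Most other transporters of these families fell. Of 13 tested genes in a list of other ABCA, ABCG and canalicular transporters, 12 fell and 1 did not pass, beside 31.0% of all tested genes that fell. Abca7 was placed in the list of HDL assembly and is not among them. It did not pass (-0.08, SE 0.19, adjusted p = 0.730). The median of the transporter list was -2.82. Abcb4, which flips phosphatidylcholine into bile, had 42.5 ± 4.96 CPM in LPS livers and 595 ± 5.80 CPM in control livers (-3.81, SE 0.14). Abcc2, which exports conjugates, fell by 3.80 (SE 0.13) and Abca8b by 3.58 (SE 0.16). Reads of Abca8b and its near copy Abca8a may have been split between them in counting. The exception in the transporter list was Abcb1a (-0.22, SE 0.47), at under 2 CPM in both groups. Abcb1a and Abca7 were named after their values were seen.

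**Figure D5:**
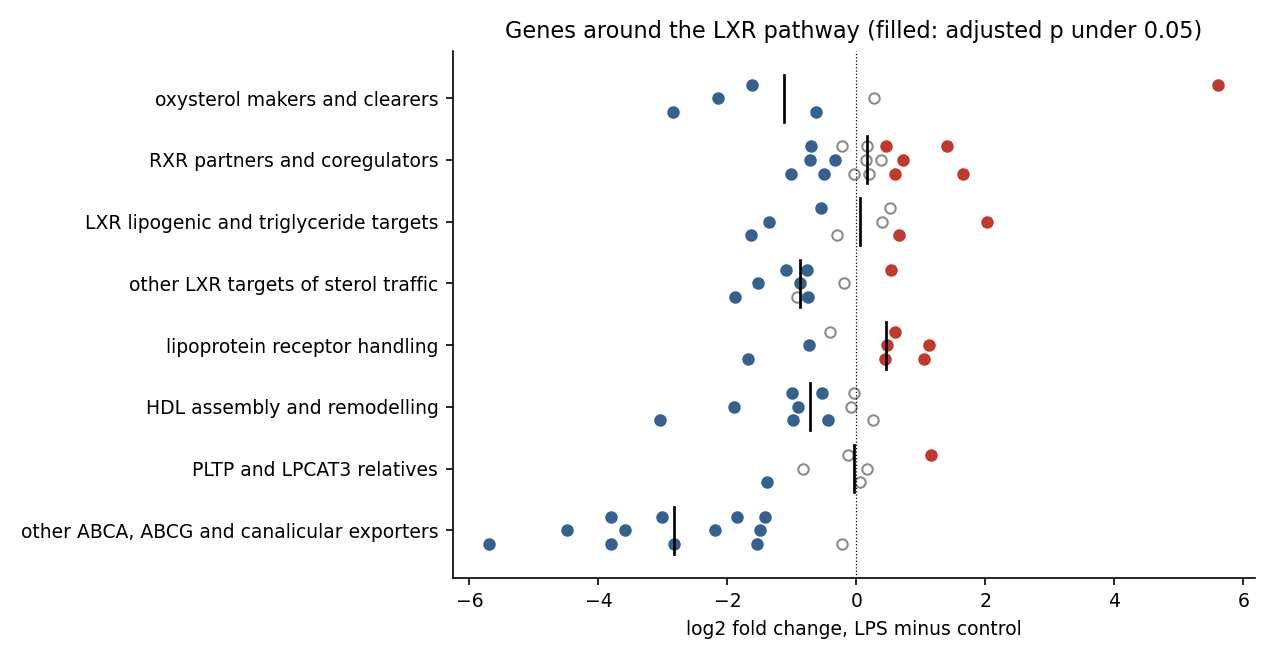
Log2 fold change, LPS minus control, of each tested gene in 8 lists around the LXR pathway, with filled points where the adjusted p was under 0.05 (red higher, blue lower in LPS livers) and a line at the list's median. The list of other ABC transporters lies lowest (median -2.82), and Ch25h (5.61) stands far to the right of the other oxysterol genes.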

How the data were processed

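Whole liver RNA was sequenced as 3 LPS and 3 control libraries. The authors deposited raw counts per gene, 1 table per library, in fields of 8 characters. Per the submitters' processing notes, bcl2fastq 2.0, HISAT2, StringTie, DESeq2, limma and build mm10 were used, and the sources used here name neither the counting tool nor a strand setting. Of 22488 genes, 20722 were named by Entrez identifier from RefSeq (GRCm38.p6). All 9 members matched by symbol. Nothing says that libraries came from separate mice, so p values measure the spread between these samples.

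Counts were compared in R 4.3.3 with edgeR 4.0.16 (TMM, filterByExpr with minimum count 10 and minimum total 15, quasi-likelihood F test, 2-sided, Benjamini-Hochberg over all genes tested). SE was the log2 fold change over the root of its F statistic. Ratios used exact permutation (scipy 1.17.1). Positions and exon lengths (union of basic transcripts) came from GENCODE M21 on GRCm38. The code was tested on simulated data. The members, the lists and the naming rule were chosen with earlier results of these data known. The rule took all members and, in each list, the 3 called genes with the smallest adjusted p, the most abundant gene and a few fixed by name, and some of these genes are not reported here. Alternatives were RLE factors, library totals, DESeq2 1.42.0, no filter, a replicate block and leaving out each library.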

Additional observations from a re-analysis of the deposited data

How the results depend on the processing

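The calls of Abca1, Nr1h3, Abcg5, Abcg8 and Mylip kept their direction and passed the threshold under all 11 alternatives. The log2 fold change ranged from 2.34 to 2.48 for Abca1, -1.37 to -1.22 for Nr1h3, -1.84 to -1.52 for Abcg5 and -2.12 to -1.97 for Abcg8. Leaving out 1 library at a time, 56.2% to 59.0% of all genes passed. In those fits 1 to 2 members, 1 to 2 oxysterol genes and 3 to 4 genes of lipoprotein receptor handling were higher. The other counts stayed within 1.5 times, and the 4 ratios moved by less than the spread between libraries. Falling members numbered 6 with library totals, where 61.4% of all genes passed, and without a filter, where 48.1% did, since Lpcat3 and Pltp passed too, and 4 with DESeq2, where 51.6% did. The labels do not say whether equal replicate numbers mark paired libraries. Deviations from the group means correlated at -7.45e-04, 0.104 and 0.0352 for equal numbers, and at -0.121 to 0.0741 for unequal ones. With 3 libraries per group these values cannot decide whether the numbers pair the libraries. With the replicate block 3780 genes were higher and 3766 lower, together 62.5% of all genes tested. In that fit 1 member was higher and 6 lower, Lpcat3 (-0.37, adjusted p = 0.0263) and Pltp (-0.97, adjusted p = 0.00180) being the added ones. Scd1 (0.42, adjusted p = 0.0143) and Nrip1 (0.40, adjusted p = 0.0477) also passed with the block. Depth limits Abcg1, with 16 to 54 counts per library, and the causes of these shifts were not tested.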

Other observations

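The genes whose centred log2 CPM profiles over the 6 libraries lay nearest to those of 3 members were found among the 12069 tested genes outside the set, as a description. For Abca1 they were Cep170 (distance 0.234, log2 fold change 2.31) and Chmp4b (0.293, 2.50). For Nr1h3 they were Zdhhc9 (0.0979, -1.23) and Cpn2 (0.104, -1.32), and for Abcg8 they were Fcgrt (0.138, -2.00) and Chpt1 (0.198, -2.01). With Pearson correlation in place of the distance, 0 of the 2 nearest genes were shared for each of these members. The 6 points of a profile include the difference between the groups, so nearness in part restates a like fold change.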
